A study of Mus musculus with 8 samples.

Results

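The 45 genes described here encode the enzymes of the urea cycle and of amino acid breakdown in mouse liver. They were chosen by name for their role, with earlier results of these data known. All 45 were found among the 25690 genes of the deposited table. The study set liver RNA of mice lacking Foxo1 in the liver (hepatic knockout) against liver RNA of wildtype controls. Foxo1 encodes a forkhead transcription factor, which leaves the nucleus when insulin signals. Each group had 4 libraries, named below by group and title number as knockouts 3, 9, 10 and 11 and wildtypes 1, 3, 10 and 12. The sources used here do not give age, sex, diet or what drives the deletion. They also do not say whether each library is a different animal. The p-values therefore measure the spread between libraries, which may be technical.

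The liver is the main site where amino acids are taken apart. Their carbon enters glucose, ketone or energy metabolism, their nitrogen is collected as ammonia and aspartate, and the urea cycle turns it into urea for excretion. Cps1 and Otc work in the mitochondria, Ass1, Asl and Arg1 in the cytosol, and Nags makes the activator that Cps1 needs. In liver most of these genes are used by hepatocytes, the urea cycle most strongly by those near the portal vein, and hormones such as glucagon, glucocorticoids and insulin are known to act on them.

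Foxo1 itself was low in each knockout library, at 0.212 to 0.375 FPKM in knockout liver, against 3.01 to 3.81 FPKM in wildtype liver. FPKM is a fragment number scaled to transcript length and to the size of the library. Depth, estimated from the FPKM of a single fragment, was 26.8 M to 35.1 M fragments per library (M, mega). Hepatocyte genes were at high levels in each library (Apob 513 to 777 FPKM in knockout and 569 to 704 FPKM in wildtype liver), except that Alb is listed at 0 in knockout 10, while 3 of 6 pancreatic and 3 of 6 kidney and gut genes were at 0 throughout. The summed level of the 6 kidney and gut genes was 20.2 to 71.5 FPKM in knockout and 87.6 to 114 FPKM in wildtype liver, with Fabp2 called lower. That of the 6 pancreatic genes was 29.4 to 44.9 FPKM in knockout and 52.1 to 66.6 FPKM in wildtype liver, with Cela1 called lower. Knockouts 3 and 11 stood apart by their acute phase genes, which encode plasma proteins released by liver during inflammation. The summed level of 18 such genes was 114178 and 108713 FPKM in knockouts 3 and 11, 14999 and 15627 FPKM in knockouts 9 and 10, and 12004 to 12995 FPKM in wildtype liver. Lymphocyte and neutrophil markers were high in the same libraries, with sums over 8 genes of 57.8 and 137 FPKM in knockouts 3 and 11, 3.94 and 7.36 FPKM in knockouts 9 and 10, and 1.997 to 5.74 FPKM in wildtype liver. In knockouts 3 and 11 nearly all of the sum was S100a8 and S100a9. Of the 3 tested, 0 passed. The part of these differences in the results below was not tested, and calls and signs that change without knockouts 3 and 11 are given with and without them. Of 7 tested sinusoidal endothelial markers 3 fell (summed level of the 8 listed, 45.3 to 75.5 FPKM in knockout and 77.0 to 99.1 FPKM in wildtype liver). Since whole liver was sequenced, fewer cells of a type and less RNA per cell cannot be told apart.

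Promoter sequences of 35 of the 45 genes were found in the RefSeq table of build GRCm38.p6, and those of 4 genes that were lower in knockout liver are shown, because Otc is the urea cycle gene among them and Tdo2, Haao and Hgd belong to the breakdown of tryptophan and tyrosine. Each is the 250 bases before the start that RefSeq gives, on the gene's own strand. For Otc and Hgd that start is the outer end of the gene as located below, while for Tdo2 and Haao it lies 474 and 1173 bases inside it, and of the 35 genes 23 have a RefSeq start within 50 bases of that end. They lie at chrX:10252055-10252304 (plus strand, Otc), chr3:81975729-81975978 (minus strand, Tdo2), chr17:83846791-83847040 (minus strand, Haao) and chr16:37579903-37580152 (plus strand, Hgd). Capitals mark the letters of the motifs described next.
Otc: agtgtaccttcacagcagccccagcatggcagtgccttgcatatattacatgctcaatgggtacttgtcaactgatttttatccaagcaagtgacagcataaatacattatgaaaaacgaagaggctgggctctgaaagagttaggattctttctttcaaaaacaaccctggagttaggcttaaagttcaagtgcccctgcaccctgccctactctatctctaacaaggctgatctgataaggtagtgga
Tdo2: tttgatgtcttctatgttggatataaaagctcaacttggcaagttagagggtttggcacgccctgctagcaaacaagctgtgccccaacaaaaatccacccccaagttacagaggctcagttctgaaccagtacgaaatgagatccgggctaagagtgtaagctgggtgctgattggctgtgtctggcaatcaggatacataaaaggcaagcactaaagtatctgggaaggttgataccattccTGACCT
Haao: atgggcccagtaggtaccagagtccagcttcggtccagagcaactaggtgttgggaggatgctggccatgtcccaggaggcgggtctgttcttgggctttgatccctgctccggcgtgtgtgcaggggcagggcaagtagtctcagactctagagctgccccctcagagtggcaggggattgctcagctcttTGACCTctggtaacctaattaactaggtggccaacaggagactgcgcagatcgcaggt
Hgd: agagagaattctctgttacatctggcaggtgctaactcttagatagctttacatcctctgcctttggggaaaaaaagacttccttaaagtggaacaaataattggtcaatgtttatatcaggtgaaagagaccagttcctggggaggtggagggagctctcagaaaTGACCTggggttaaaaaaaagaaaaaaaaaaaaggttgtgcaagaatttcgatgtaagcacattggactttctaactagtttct

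Both strands were searched for GTAAACA, a sequence known to be bound by FoxO factors, for CAAAACA, the insulin response sequence known from the Igfbp1 promoter, and for AGGTCA, the core letters that many nuclear receptors recognise, all of them chosen with the results known. Matches were counted per gene for the 35 genes, which have 38 promoter entries, and per entry for all promoters. GTAAACA was in the promoters of 0 of the 35 genes, and in 3.17% of 32851 promoters of the same length. CAAAACA was in 3 of the 35, those of Ahcy, Amt and Kmo, and in 5.56% of all promoters. AGGTCA was in 15 of the 35 and in 14.0% of all promoters. Of the 6 lower genes with a promoter sequence, 4 held it, namely Prodh2, Tdo2, Haao and Hgd, as did 11 of the 29 others. In Tdo2 the match covers bases 6 to 1 before the RefSeq start, in Haao bases 58 to 53 and in Hgd bases 84 to 79, each time on the opposite strand (TGACCT). A match of letters is a description and not a binding site, and no match says only that the letters are not in these windows.

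All 45 genes passed the filter of a mean of at least 1 FPKM. In knockout liver 8 of them were lower and 0 higher than in wildtype liver (limma on log2(FPKM + 1), Benjamini-Hochberg adjusted p under 0.05 over 10250 genes). Among all tested genes 11.7% were called lower and 2.70% higher, beside 17.8% lower among the 45. The order of these shares turned with the scaling between libraries: 4.44% of the 45 and 7.02% of all tested genes were lower after median-ratio scaling, and 2.22% and 6.36% after quantile normalization. It also turned with the filter on low values. With a mean of at least 5 FPKM, which all 45 genes reached, 17.8% of the 45 and 19.9% of 6003 tested genes were lower. Their median log2 changes were then -0.14 and -0.12. With the filter at 1 FPKM and an unadjusted limma p under 0.05, 11 of the 45 were lower and 1 higher. Among the 10250 genes tested, 2330 were lower and 796 higher at that p. The median log2 change was -0.14 over the 45 genes and -0.08 over all tested genes, and 35 of the 45 lay below 0 (77.8%, against 62.3% of all tested genes). For 9 of the 45 genes all knockout values lay below all wildtype values, and for 0 above, where 16.5% of all tested genes were lower and 4.83% higher without overlap. The number of lower genes was 4 without knockout 3, 3 without wildtype 1, 5 without wildtype 10 and 4 without wildtype 12, where 7.07%, 5.84%, 7.26% and 7.27% of all tested genes were lower. Median-ratio scaling gave 2 lower and 1 higher of the 45, and quantile normalization 1 lower and 3 higher.

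**Figure D1:**
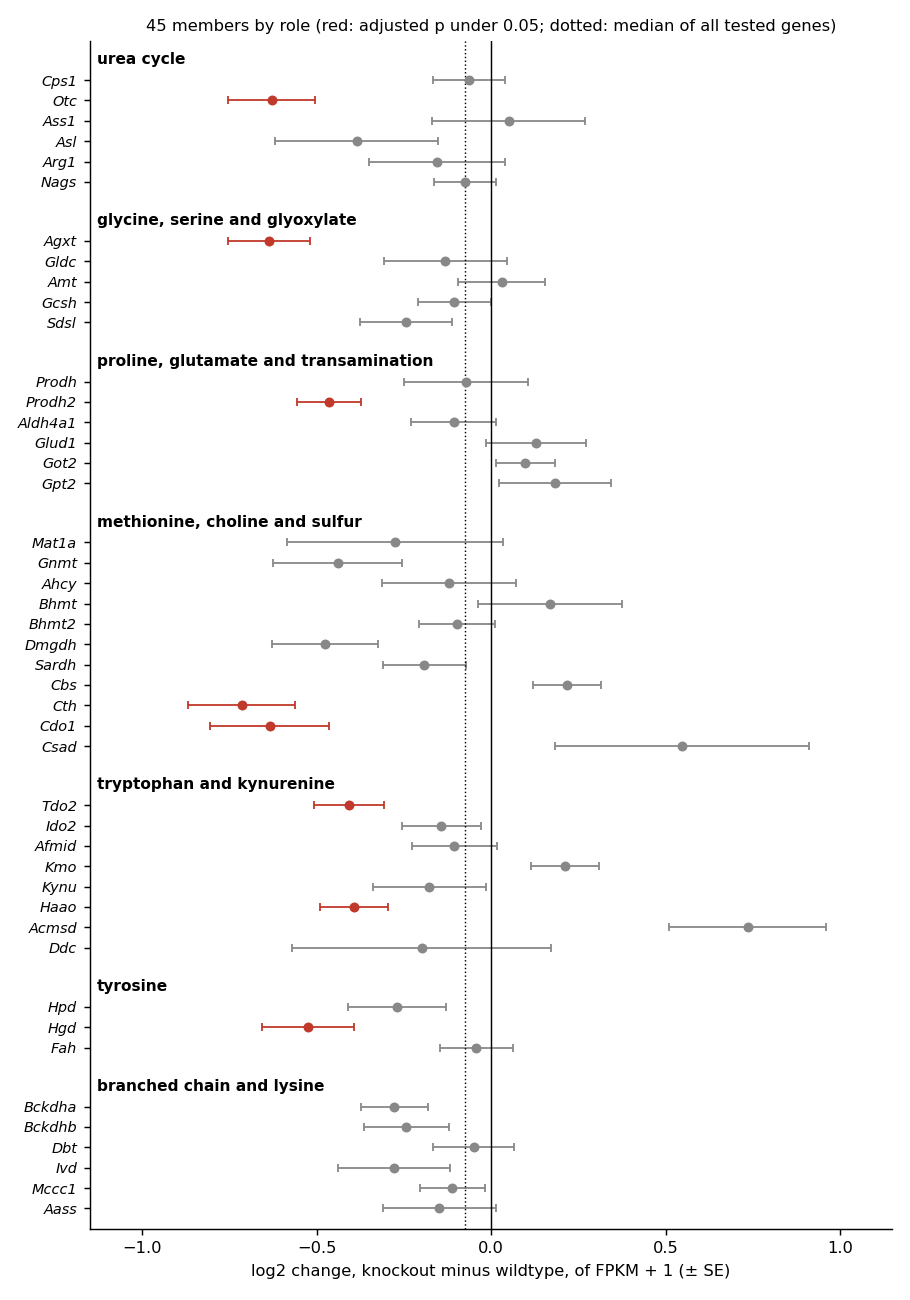
Log2 change (knockout minus wildtype, of FPKM + 1) of the 45 genes with its SE, grouped by role, 4 libraries per group. The 8 genes in red passed and all lie below 0; the dotted line is the median of all tested genes, -0.08.

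Of the 6 urea cycle genes 1 was called lower, Otc, a share of 16.7% beside the 11.7% of all tested genes. Without knockouts 3 and 11, Asl and Arg1 were called lower as well, as given below. The counts by role that follow stand beside the same 11.7%. Otc, ornithine transcarbamylase, which joins carbamoyl phosphate to ornithine (ENSMUSG00000031173, chrX:10252305-10321024, mm10, plus strand), had 151, 189, 218 and 160.2 FPKM in knockouts 3, 9, 10 and 11, against 275, 270.1, 262 and 297 FPKM in wildtypes 1, 3, 10 and 12. Each knockout library was below each wildtype library. The knockout mean was 34.8% lower, a log2 change of -0.63 (SE 0.12, limma adjusted p = 0.0118). The call held with each single library left out, with median-ratio scaling, and without knockouts 3 and 11 (-0.44, limma adjusted p = 0.0436). It did not hold with quantile normalization (0.0721) or with the title number as a further term (0.328). The range over all alternatives was 0.00732 to 0.328.

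Cps1, carbamoyl phosphate synthetase, the enzyme before Otc (ENSMUSG00000025991, chr1:67123026-67231259, plus strand), had 349, 289, 302 and 332 FPKM in knockouts 3, 9, 10 and 11, against 294, 344, 326 and 365 FPKM in wildtypes 1, 3, 10 and 12. The groups overlapped throughout, and Cps1 did not pass (log2 change -0.06, 95% interval -0.30 to 0.17, limma adjusted p = 0.728). Nags, N-acetylglutamate synthase (chr11:102145513-102149477, plus strand), had 25.5, 25.5, 21.2 and 25.0 FPKM in knockout and 24.6, 26.7, 24.3 and 26.7 FPKM in wildtype liver in the same order of libraries. It did not pass either (log2 change -0.07, 95% interval -0.28 to 0.13, limma adjusted p = 0.627).

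The 3 cytosolic enzymes of the cycle spread widely among the knockout libraries. Ass1, argininosuccinate synthase (chr2:31470207-31520672, plus strand), had 1454, 882, 1438 and 2008 FPKM in knockouts 3, 9, 10 and 11, against 1413, 1219, 1257 and 1485 FPKM in wildtypes 1, 3, 10 and 12. Asl, argininosuccinate lyase (chr5:130011258-130029247, minus strand), had 247, 169, 253 and 426 FPKM in knockout and 340.4, 302, 351 and 365 FPKM in wildtype liver. Arg1, arginase, which releases urea (chr10:24915221-24927484, minus strand), had 1283, 774, 856 and 1443 FPKM in knockout and 1079, 1203, 1204 and 1209 FPKM in wildtype liver. For each of them knockout 9 was the lowest and knockout 11 the highest of the 8 libraries. None of the 3 passed (log2 changes 0.05, -0.39 and -0.16 for Ass1, Asl and Arg1, limma adjusted p = 0.903, 0.307 and 0.644). Without knockouts 3 and 11, Asl (-0.71, limma adjusted p = 0.0450) and Arg1 (-0.53, 0.0251) were lower, Ass1 was at -0.25 (0.460), and Asl was also lower without knockout 11 alone (-0.62, 0.0366). Across the alternatives the adjusted p ran from 0.0366 to 0.698 for Asl, from 0.0251 to 0.979 for Arg1 and from 0.240 to 0.992 for Ass1.

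**Figure D2:**
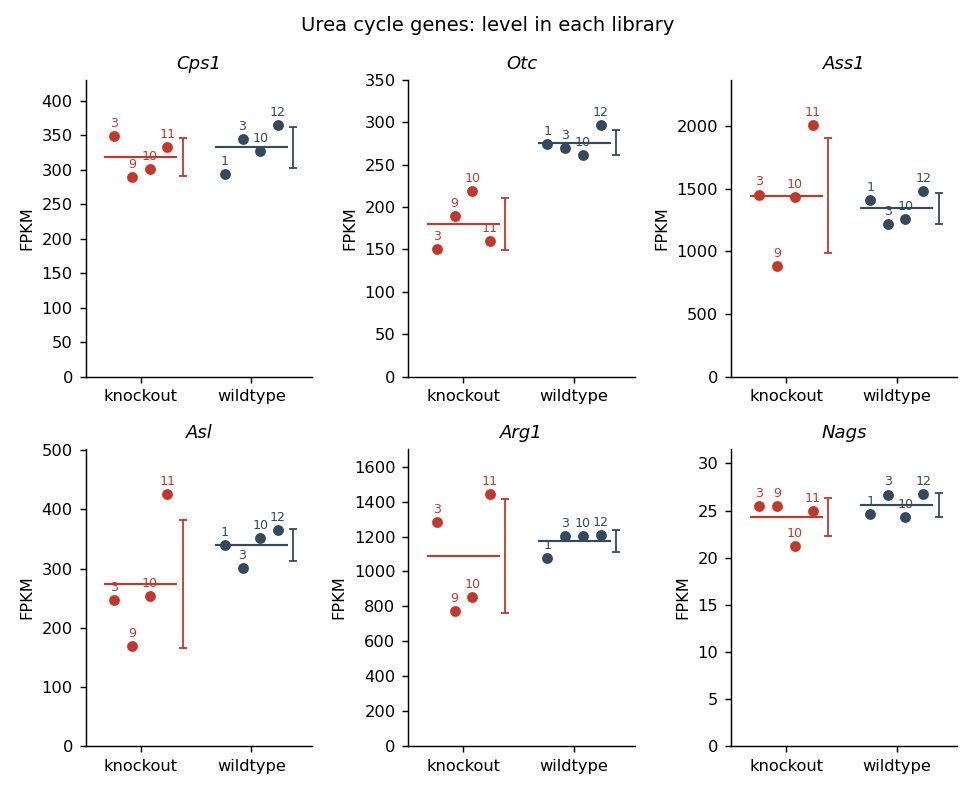
FPKM of the 6 urea cycle genes in each knockout and wildtype library, labelled by its number, with the mean as a line and the SD as a bar (n = 4 per group). Otc is lower in all 4 knockout libraries, while Ass1, Asl and Arg1 run from lowest in knockout 9 to highest in knockout 11.

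In the breakdown of glycine, serine and glyoxylate 1 of 5 genes fell, Agxt. It encodes the aminotransferase that turns glyoxylate into glycine and thereby keeps it from becoming oxalate (ENSMUSG00000026272, chr1:93135240-93145421, plus strand). Agxt had 120.1, 112, 155 and 138 FPKM in knockouts 3, 9, 10 and 11, against 227, 191, 193 and 203 FPKM in wildtypes 1, 3, 10 and 12, with no overlap. Its mean was 35.5% lower in the knockout (log2 change -0.64, SE 0.12, limma adjusted p = 0.00992). This was the smallest adjusted p among the 45 genes, and Agxt passed under each scaling tried and with each single library left out (limma adjusted p up to 0.0384 without a single library, and 0.00708 to 0.310 over all alternatives). The glycine cleavage genes Gldc, Amt and Gcsh, which split glycine in the mitochondria, did not pass, with means of 21.5 ± 5.36, 17.3 ± 1.58 and 65.6 ± 5.37 FPKM in knockout and 23.3 ± 3.20, 17.0 ± 2.79 and 70.8 ± 8.24 FPKM in wildtype liver (SD, n = 4 each). Sdsl, a serine dehydratase-like gene, was at 7.89 ± 1.59 FPKM in knockout and 9.42 ± 0.930 FPKM in wildtype liver and missed the threshold (limma adjusted p = 0.253).

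Among the genes of proline, glutamate and transamination 1 of 6 fell. Prodh2, the dehydrogenase of hydroxyproline, a source of glyoxylate (ENSMUSG00000036892, chr7:30493622-30513402, plus strand), had 96.8, 103, 110.2 and 115 FPKM in knockouts 3, 9, 10 and 11, against 162, 138, 145 and 144 FPKM in wildtypes 1, 3, 10 and 12. The groups were apart, and the knockout mean was 27.6% lower (log2 change -0.46, SE 0.09, limma adjusted p = 0.0119). Prodh2 did not pass with median-ratio scaling (0.0504) or quantile normalization (0.0715), within a range of 0.00841 to 0.300 over all alternatives. Its relative Prodh, which oxidises proline, had means of 75.1 ± 18.1 FPKM in knockout and 78.0 ± 12.2 FPKM in wildtype liver (SD, n = 4 each) and missed the threshold (limma adjusted p = 0.826). Aldh4a1, the next enzyme of proline breakdown, was at 66.7 ± 3.77 and 72.6 ± 11.7 FPKM in knockout and wildtype liver.

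The mitochondrial enzymes that move amino groups did not pass. Glud1, glutamate dehydrogenase, had 331 to 337 FPKM in the 4 knockout libraries and 251 to 412 FPKM in the 4 wildtype libraries. Got2, the aspartate aminotransferase, was at 154 ± 5.98 FPKM in knockout and 144 ± 9.43 FPKM in wildtype liver (SD, n = 4 each, limma adjusted p = 0.485). Gpt2, an alanine aminotransferase, had 75.0, 52.7, 56.9 and 74.5 FPKM in knockouts 3, 9, 10 and 11, against 51.8, 49.6, 53.0 and 73.2 FPKM in wildtypes 1, 3, 10 and 12. Wildtype 12 was at the level of knockouts 3 and 11, and Gpt2 did not pass (log2 change 0.18, limma adjusted p = 0.488, and -0.0372 without knockouts 3 and 11, 0.911).

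**Figure D3:**
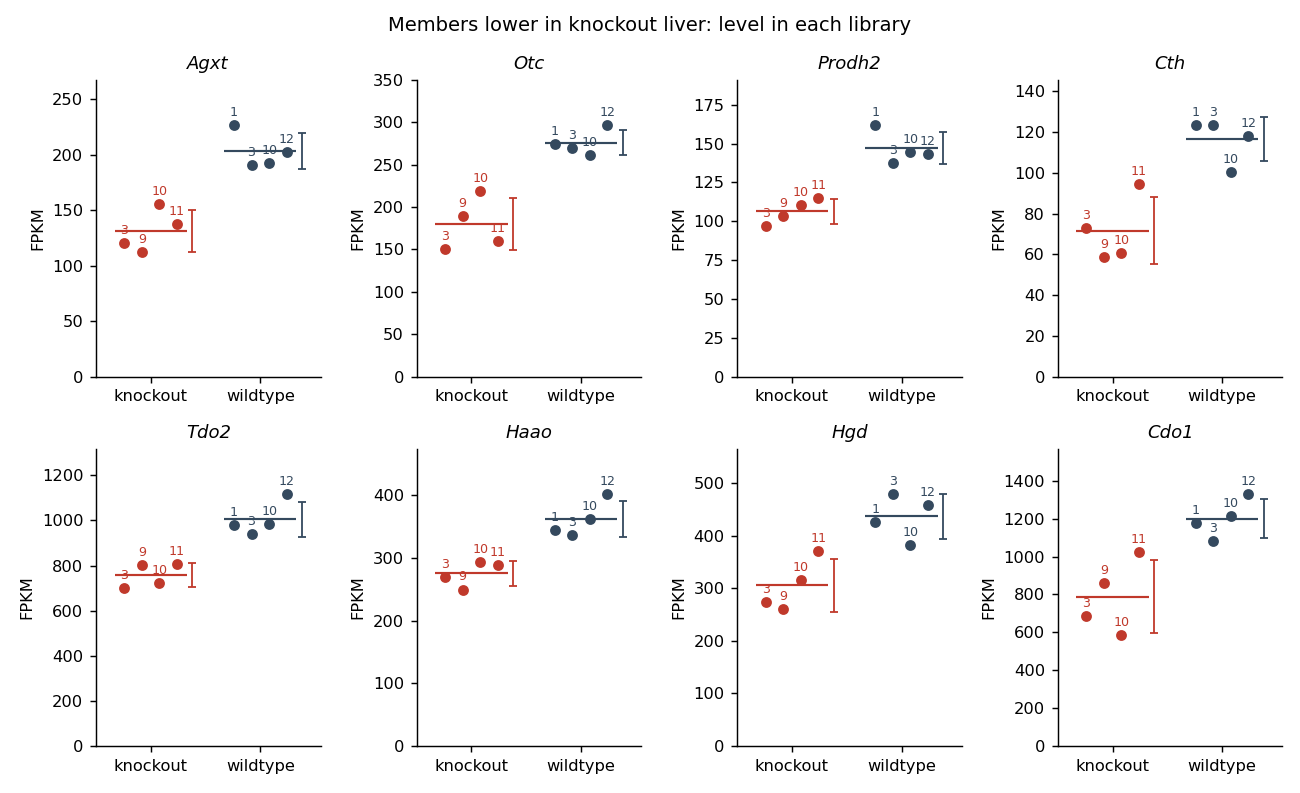
FPKM of the 8 genes that were lower in knockout liver, in each knockout and wildtype library, labelled by its number, with the mean as a line and the SD as a bar (n = 4 per group). In each panel all 4 knockout libraries lie below all 4 wildtype libraries.

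In the sulfur branch 2 of 11 genes of methionine, choline and sulfur metabolism fell. They are consecutive steps of cysteine handling. Cth, cystathionine gamma-lyase, which makes cysteine and is a source of hydrogen sulfide (ENSMUSG00000028179, chr3:157894248-157925077, minus strand), had 73.0, 58.5, 60.6 and 94.5 FPKM in knockouts 3, 9, 10 and 11, against 124, 123, 101 and 118 FPKM in wildtypes 1, 3, 10 and 12. The highest knockout library, 11, was below the lowest wildtype library, 10. The mean was 38.5% lower in the knockout (log2 change -0.71, SE 0.15, limma adjusted p = 0.0158). Without knockouts 3 and 11 the change was -0.95 (limma adjusted p = 0.00969). Cth did not pass without wildtype 1 (0.0539), with median-ratio scaling (0.0679), quantile normalization (0.0721) or the length trend removed (0.0644), within a range of 0.00657 to 0.272 over all alternatives.

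Cdo1, cysteine dioxygenase, which takes cysteine towards taurine and sulfate (ENSMUSG00000033022, chromosome 18), had 688, 859, 584 and 1022 FPKM in knockouts 3, 9, 10 and 11, against 1176, 1081, 1214 and 1329.6 FPKM in wildtypes 1, 3, 10 and 12. There was no overlap, although knockout 11 came close to wildtype 3. The knockout mean was 34.3% lower (log2 change -0.63, SE 0.17, limma adjusted p = 0.0367). The call was not firm. It was lost without knockout 3 or 10 or wildtype 1, 3, 10 or 12, each alone (limma adjusted p = 0.0599 to 0.0951), with no filter on low values (0.0836), with either other scaling (0.0927 and 0.109) and with the length trend removed (0.118), within a range of 0.0162 to 0.283 over all alternatives.

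Csad, cysteine sulfinic acid decarboxylase, the next enzyme on the way to taurine, had 29.1, 106, 40.1 and 52.0 FPKM in knockouts 3, 9, 10 and 11, against 21.9, 34.0, 41.8 and 44.0 FPKM in wildtypes 1, 3, 10 and 12. Knockout 9 was by far the highest, knockouts 3 and 10 lay within the wildtype range, and Csad did not pass (log2 change 0.55, 95% interval -0.27 to 1.36, limma adjusted p = 0.350). Without knockouts 3 and 11 it was at 0.91 (0.205). Cbs, the enzyme before Cth, was at 249 ± 15.1 FPKM in knockout and 215 ± 20.3 FPKM in wildtype liver (SD, n = 4 each). It missed the threshold (0.22, limma adjusted p = 0.165) and was called higher after median-ratio scaling and after quantile normalization.

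The methionine cycle did not pass at any step. Mat1a, which makes S-adenosylmethionine in hepatocytes, had 697, 293, 486 and 987 FPKM in knockouts 3, 9, 10 and 11, against 643 to 718 FPKM in wildtype liver. Both the lowest and the highest of the 8 values were knockout libraries. The log2 change was -0.27 (limma adjusted p = 0.602), and without knockouts 3 and 11 it was -0.84 (0.0402). Gnmt, which uses up S-adenosylmethionine by methylating glycine, had 1116, 813, 1227 and 1550.3 FPKM in knockout and 1573, 1443, 1447 and 1778 FPKM in wildtype liver in the order given above (-0.44, limma adjusted p = 0.143). Ahcy, which clears S-adenosylhomocysteine, was at 402 ± 101 FPKM in knockout and 427 ± 49.8 FPKM in wildtype liver, and Bhmt, which remethylates homocysteine with betaine, at 1082 ± 275 and 957 ± 203 FPKM. Their log2 changes were -0.12 and 0.17, and without knockouts 3 and 11 -0.40 and -0.0034, passing in neither case.

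Dmgdh, which oxidises the dimethylglycine that Bhmt leaves behind, had 89.0, 120.1, 143 and 115 FPKM in knockouts 3, 9, 10 and 11, against 162, 146, 146 and 193 FPKM in wildtypes 1, 3, 10 and 12. The groups did not overlap, yet Dmgdh did not pass (log2 change -0.48, 95% interval -0.82 to -0.13, limma adjusted p = 0.0677). Without knockout 10 it did (-0.58, 0.0340), and without knockouts 3 and 11 it was at -0.29 (0.246). Sardh, the sarcosine dehydrogenase that acts next, and Bhmt2 did not pass (-0.19 and -0.10, limma adjusted p = 0.316 and 0.601).

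Of 8 genes of tryptophan breakdown and the kynurenine pathway 2 fell, one at its entry and one near its end. Tdo2, tryptophan dioxygenase, the liver's entry step (ENSMUSG00000028011, chr3:81957090-81976202, minus strand), had 702, 800.3, 723 and 805 FPKM in knockouts 3, 9, 10 and 11, against 979, 939, 983 and 1116 FPKM in wildtypes 1, 3, 10 and 12. Haao, which opens the ring of hydroxyanthranilate to give the precursor of quinolinate and NAD (ENSMUSG00000000673, chr17:83831156-83847963, minus strand), had 269, 249.6, 294 and 289 FPKM in knockout and 345, 337, 363 and 402 FPKM in wildtype liver. In both genes the 4 knockout libraries lay close together and below all wildtype libraries. The means were 24.6% lower for Tdo2 and 23.9% lower for Haao (log2 changes -0.41 and -0.39, SE 0.10 each, limma adjusted p = 0.0271 and 0.0275).

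These 2 calls rested on several libraries. Tdo2 did not pass without knockout 3 or 10 or wildtype 1, 10 or 12, each alone (limma adjusted p = 0.0530 to 0.0737), and Haao without knockout 3 or wildtype 1, 10 or 12 (0.0588 to 0.0741). Without knockouts 3 and 11 the changes were -0.40 and -0.41 and did not pass (0.0612 and 0.0663). With quantile normalization the changes were -0.12 each (0.477 and 0.320), and with median-ratio scaling -0.30 and -0.28 (0.0777 and 0.0977). Haao also missed with the length trend removed (0.0561). The full range of adjusted p was 0.0186 to 0.477 for Tdo2 and 0.0197 to 0.420 for Haao.

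Acmsd, which diverts the product of Haao away from NAD synthesis, had 10.05, 5.15, 8.05 and 10.5 FPKM in knockouts 3, 9, 10 and 11, against 4.12, 6.48, 3.25 and 4.66 FPKM in wildtypes 1, 3, 10 and 12. Knockout 9 alone lay within the wildtype range. The log2 change of Acmsd, 0.73, was the largest positive one among the 45 genes and did not pass (95% interval 0.23 to 1.24, limma adjusted p = 0.0580, 0.0184 to 0.304 over all alternatives). It passed without knockout 9 (0.93, 0.0184), without wildtype 3 (0.88, 0.0425), with library weights (0.84, 0.0259) and with a mean of at least 5 FPKM (0.0460), and without knockouts 3 and 11 it was at 0.44 (0.304). Between entry and end, Afmid, Kynu and Kmo did not pass, and Kmo, the hydroxylase of kynurenine, was at 115 ± 10.7 FPKM in knockout and 98.7 ± 7.28 FPKM in wildtype liver (SD, n = 4 each, limma adjusted p = 0.177). Ido2, a second tryptophan dioxygenase of another family, was at 19.5 ± 3.10 and 21.4 ± 0.984 FPKM in knockout and wildtype liver. Ddc, the decarboxylase of aromatic amino acids, ranged from 14.4 to 52.3 FPKM in knockout liver and from 22.3 to 41.5 FPKM in wildtype liver, with a log2 change of -0.20 (limma adjusted p = 0.762) that was 0.44 without knockouts 3 and 11 (0.406).

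Of the 3 tyrosine breakdown genes 1 fell. Hgd, which opens the ring of homogentisate (ENSMUSG00000022821, chr16:37580153-37632020, plus strand), had 274, 259.5, 316 and 371 FPKM in knockouts 3, 9, 10 and 11, against 426, 479, 382 and 459 FPKM in wildtypes 1, 3, 10 and 12. Knockout 11 and wildtype 10 were close, without overlap. The knockout mean was 30.1% lower (log2 change -0.52, SE 0.13, limma adjusted p = 0.0292, 0.0155 to 0.337 over all alternatives). Hgd did not pass without knockout 3 or 9 or wildtype 1, 3 or 12, each alone (0.0522 to 0.0772), with no filter on low values (0.0566), with median-ratio scaling (0.111), quantile normalization (0.167) or the length trend removed (0.105). Hpd, the enzyme before it, was the member with the highest mean in both groups, 1540.2 ± 227 FPKM in knockout and 1854 ± 231 FPKM in wildtype liver (SD, n = 4 each), and did not pass (-0.27, limma adjusted p = 0.230). Fah, the last enzyme of the pathway, was at 423 ± 49.2 FPKM in knockout and 434 ± 13.7 FPKM in wildtype liver (-0.04, 95% interval -0.28 to 0.19).

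No gene of branched chain amino acid and lysine breakdown passed, and all 6 changes lay below 0, between -0.28 and -0.05. Bckdha, Bckdhb and Dbt, subunits of the complex that commits branched chain keto acids to breakdown, were at 88.4 ± 5.22, 65.3 ± 7.92 and 20.3 ± 2.69 FPKM in knockout and 108 ± 10.2, 77.4 ± 9.42 and 21.0 ± 2.32 FPKM in wildtype liver (SD, n = 4 each). Bckdha came nearest to passing (-0.28, 95% interval -0.49 to -0.06, limma adjusted p = 0.0843), and its knockout range of 84.2 to 95.1 FPKM met the wildtype range of 94.5 to 119 FPKM at one end. Ivd, which acts on the leucine branch, was at 90.7 ± 11.03 FPKM in knockout and 112 ± 22.8 FPKM in wildtype liver, and Mccc1, further down the same branch, at 11.7 ± 0.839 and 12.7 ± 1.16 FPKM. Aass, the entry enzyme of lysine breakdown, was at 62.6 ± 16.4 FPKM in knockout and 68.0 ± 4.30 FPKM in wildtype liver.

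The knockout libraries differed from each other most in the urea cycle and in methionine and sulfur metabolism. The median SD of log2(FPKM + 1) within a group was 0.34 in knockout and 0.10 in wildtype liver over the 6 urea cycle genes, and 0.35 and 0.14 over the 11 methionine and sulfur genes, in knockout and wildtype liver. Over all tested genes it was 0.19 in knockout and 0.13 in wildtype liver. Mat1a had an SD of 0.75 in knockout and 0.07 in wildtype liver. The share of genes with the larger SD in the knockout, 32 of 45 or 71.1%, was close to the 69.3% of all tested genes.

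Single libraries held the extremes. Knockout 11 was the highest knockout library for 23 of the 45 genes (51.1%, against 16.5% of all tested genes), and knockout 9 was the lowest for 25 (55.6%, against 19.95%). The median deviation of the 45 genes from the wildtype mean was -0.11, -0.32, -0.16 and 0.005 in knockouts 3, 9, 10 and 11 on the log2 scale. Over all tested genes it was -0.145, 0.0019, -0.038 and -0.163 in the same order, so there knockouts 3 and 11 were the lower ones. For the urea cycle genes it was 0.03, -0.57, -0.29 and 0.15. By the urea cycle median knockouts 9 and 10 were low. Knockouts 3 and 11, those with the high acute phase genes, were near or above the wildtype mean in these genes. Otc ran the other way, at 151 and 160.2 FPKM in knockouts 3 and 11 and 189 and 218 FPKM in knockouts 9 and 10. Nags in knockout 9 was at 25.5 FPKM, beside a wildtype mean of 25.6 FPKM. The 8 periportal hepatocyte markers had median deviations of -0.24, -0.38, -0.22 and 0.29 in knockouts 3, 9, 10 and 11. Of them 1 was called higher and 2 lower. Sds, Hal and Gls2 among them are also on the list of other amino acid genes described below. The 9 tested pericentral markers had median deviations of -0.57, 0.39, -0.20 and -0.18 in the same order. Among wildtype libraries, wildtype 12 was the highest for 32 of the 45 genes (71.1%, against 43.5% of all tested genes). Sds, serine dehydratase, a gene outside the 45 named after its values were seen, had 207, 68.0, 86.0 and 368 FPKM in knockouts 3, 9, 10 and 11 and 106 to 141 FPKM in wildtype liver, with knockouts 9 and 10 below and knockouts 3 and 11 above all wildtype libraries.

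**Figure D4:**
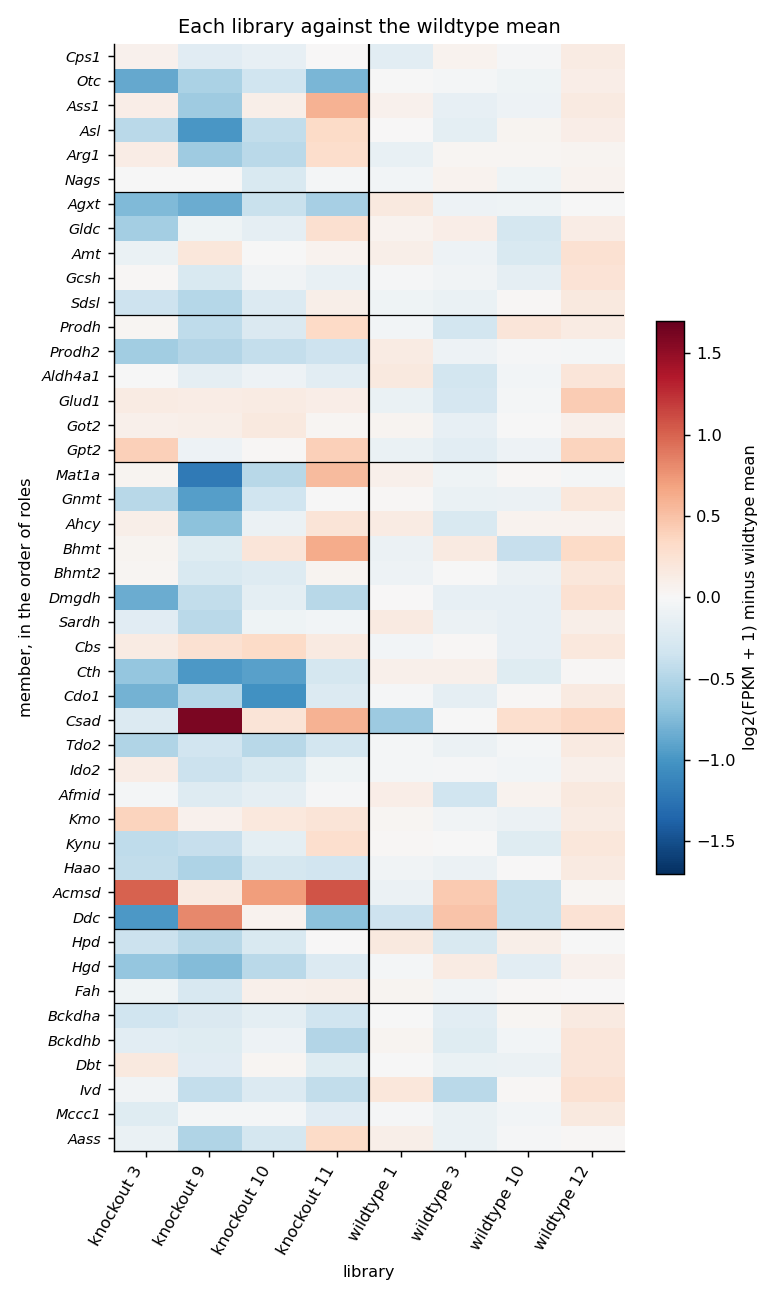
Log2(FPKM + 1) of the 45 genes in each library minus the wildtype mean, with the knockout libraries on the left and horizontal lines between roles. Otc, Agxt, Prodh2, Cth, Cdo1, Tdo2, Haao and Hgd are blue in all 4 knockout columns, while Ass1, Arg1, Mat1a and Ahcy are blue in knockout 9 and red in knockout 11.

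The scaling between libraries moved the whole distribution and with it the number of calls. Among all tested genes 277 were higher and 1195 lower as deposited, 485 and 720 after median-ratio scaling, 470 and 652 after quantile normalization, and 516 and 585 with the trend along transcript length removed. The share of tested genes called lower was 7.02%, 6.36% and 5.76% under these 3 settings. Of the 45 genes, Otc and Agxt remained lower after median-ratio scaling, Agxt after quantile normalization, and Otc, Agxt, Prodh2 and Tdo2 with the length trend removed. The log2 change of each of the 8 genes kept its sign under the 3 settings. Quantile normalization called Cbs, Got2 and Kmo higher and moved the median of the 45 genes to 0.01, and median-ratio scaling called Cbs higher. Leaving out knockouts 3 and 11 gave 9 lower genes, with Asl, Arg1 and Mat1a added and Tdo2 and Haao lost, where 6.40% of all tested genes were lower.

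**Figure D5:**
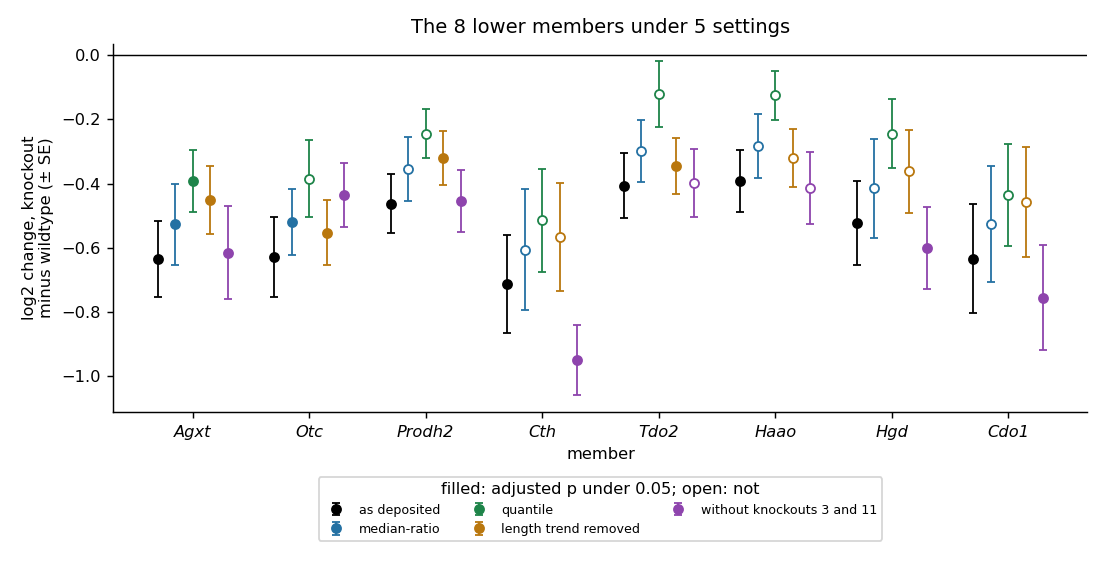
Log2 change (knockout minus wildtype, ± SE) of the 8 lower genes under 5 settings, with filled points for an adjusted p under 0.05 and open points otherwise. All points lie below 0, and Agxt is filled under all 5 settings.

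Other genes of amino acid metabolism were chosen for their textbook role, with earlier results of these data known. Of 59 tested among 67, 14 were lower and 2 higher in knockout liver, a share of 23.7% lower beside the 11.7% of all tested genes, with a median log2 change of -0.26. The difference between the 2 lists was not tested. With the length trend removed 8 were lower, and without knockouts 3 and 11 the number was 6. With a mean of at least 5 FPKM the number was 18, where 19.9% of all tested genes were lower. Mcee, the methylmalonyl-CoA epimerase on the way from propionyl-CoA to succinyl-CoA, had 45.2, 42.2, 45.2 and 51.6 FPKM in knockouts 3, 9, 10 and 11, against 74.1, 74.6, 69.0 and 71.3 FPKM in wildtypes 1, 3, 10 and 12 (log2 change -0.64, SE 0.09, limma adjusted p = 0.00394, and -0.31 with the length trend removed, 0.0328). Its groups were far apart beside the narrow spread within each.

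Amdhd1, of histidine breakdown, was at 49.7 ± 8.43 FPKM in knockout and 79.2 ± 9.09 FPKM in wildtype liver (SD, n = 4 each, limma adjusted p = 0.0124). Of the other histidine genes listed (Hal, Uroc1 and Ftcd), Hal and Ftcd are given, picked after their values were seen. Both were lower (-0.40 and -0.32, limma adjusted p = 0.0482 and 0.0339). Neither was without knockouts 3 and 11 (0.0714 and 0.0851) or with the length trend removed (0.130 and 0.106). Sqor, which oxidises hydrogen sulfide, was at 84.7 ± 10.9 and 132 ± 18.9 FPKM in knockout and wildtype liver (-0.63, limma adjusted p = 0.0136) but did not pass after quantile normalization (0.0559). Pipox, an oxidase of sarcosine and pipecolate, was at 112 ± 7.27 FPKM in knockout and 148 ± 7.26 FPKM in wildtype liver (-0.40, limma adjusted p = 0.0148). It did not pass after median-ratio scaling (0.0634) or quantile normalization (0.136) or with the length trend removed (0.0518). Kyat3, a kynurenine aminotransferase, had 49.2, 75.0, 49.6 and 70.3 FPKM in knockout and 142, 131, 93.3 and 92.2 FPKM in wildtype liver in the order given above (-0.90, limma adjusted p = 0.0161), and did not pass without knockouts 3 and 11 (0.0652), without wildtype 1 (0.0517) or after quantile normalization (0.0596).

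The 2 that rose, 3.39% of the 59 tested beside 2.70% of all tested genes, were Asns and Glul, which build amides. Neither passed without knockouts 3 and 11, where 1 other gene of the list was higher. Asns, asparagine synthetase, had 9.50, 5.21, 2.61 and 5.49 FPKM in knockouts 3, 9, 10 and 11, against 0.729, 1.17, 1.31 and 2.31 FPKM in wildtypes 1, 3, 10 and 12, without overlap (log2 change 1.43, SE 0.30, limma adjusted p = 0.0150, and 1.03 without knockouts 3 and 11, 0.0725). Glul, glutamine synthetase, a marker of hepatocytes around the central vein that takes up ammonia left by the urea cycle, was at 177 ± 7.66 FPKM in knockout and 132 ± 14.8 FPKM in wildtype liver (0.43, limma adjusted p = 0.0218, and 0.0943 without knockouts 3 and 11). Other pericentral markers moved either way, with Cyp1a2 higher and Rgn and Cyp2e1 lower (0.52, -0.55 and -0.60, limma adjusted p = 0.0214, 0.0140 and 0.0318). Of these 3, only Cyp1a2 passed without knockouts 3 and 11 (0.0294, against 0.0576 for Rgn and 0.134 for Cyp2e1).

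Of 21 tested regulators of amino acid breakdown genes 5 fell and 1 rose, beside 11.7% lower and 2.70% higher among all tested genes, and 1 of the 5 is Foxo1, the deleted gene. Trib3, a pseudokinase induced by amino acid stress through Atf4, had 1.26, 2.003, 0.951 and 1.78 FPKM in knockouts 3, 9, 10 and 11, against 8.98, 4.35, 5.83 and 14.3 FPKM in wildtypes 1, 3, 10 and 12 (log2 change -1.81, SE 0.30, limma adjusted p = 0.00621). Sirt3, a mitochondrial deacetylase, was at 48.9 ± 5.78 FPKM in knockout and 74.3 ± 9.82 FPKM in wildtype liver (SD, n = 4 each, -0.59, limma adjusted p = 0.0148), and did not pass without wildtype 1 (0.0529) or without knockouts 3 and 11 (0.0744). Gcgr, the glucagon receptor, and Atf4 were lower (-0.32 and -0.51, limma adjusted p = 0.0347 and 0.0491), and Hnf4a, a nuclear receptor of hepatocyte identity, was higher (0.43, limma adjusted p = 0.0494). These 3 did not pass without knockouts 3 and 11 (0.120, 0.225 and 0.227). Without single libraries the number of regulators called was 3 without knockout 3 or wildtype 3, 10 or 12, and 2 without wildtype 1.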

How the data were processed

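Liver RNA libraries of 4 knockout and 4 wildtype samples were compared. Trizol extraction, DNase treatment and column purification preceded Illumina library preparation, per the labels' protocols. The submitters' processing notes list TopHat2 2.1.0, HTSeq, Cufflinks 2.2.1 and build mm10, with neither roles nor order. Whether counting used strand is not stated there. The authors deposited FPKM, a unit read from the values and the tools named. Of the values above 0, 50.9% have 7 or more significant digits, and 95.7% of these end in 5. Such values may be means of a pair of estimates, which no source used here states, so a column may hold more than a single run and the depth estimates carry that doubt. A count model was not used, because FPKM is a scaled unit.

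Names, coordinates and longest transcript lengths came from GENCODE M21 on the same build (24807 genes named). The 10250 genes whose mean reached 1 FPKM were fitted with limma 3.58.1 in R 4.3.3 on log2(FPKM + 1), with genotype as the single term, variance moderated along the mean, and two-sided p-values adjusted by Benjamini-Hochberg (threshold 0.05). Changes of low genes come out too small on the log2(FPKM + 1) scale. Without strand information, overlapping genes cannot be told apart: of the lower genes, Cth and Hgd overlap other annotated genes. Leaving out libraries kept the genes tested. The length trend was removed per library by symmetric loess of span 0.5, over 10149 genes with a length. The genes, lists, motifs and rule for named genes were chosen with earlier results of these data known. That rule covers urea cycle and passing genes, the 4 largest changes that did not pass, outliers, and up to 8 passing genes of the other lists. Sds, the further examples from these lists and the pericentral and hepatocyte markers named were chosen after their values were seen. The fit was tested on simulated data, drawn for each gene on its own with the same spread in both groups. The simulation held no shift of whole libraries, so it cannot show how the fit behaves under such shifts.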

Additional observations from a re-analysis of the deposited data

Results flagged for a closer look

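In 3 of 90 groups of 4 libraries checked among the 45 genes, 1 library stood far from the other 3 by Dixon's criterion, which chance gives for about 1 group in 20. Arg1 was at 1079 FPKM in wildtype 1 and at 1203 to 1209 FPKM in the other wildtype libraries. Nags was at 21.2 FPKM in knockout 10 and at 25.0 to 25.5 FPKM in the other knockout libraries. Gpt2 was at 73.2 FPKM in wildtype 12 and at 49.6 to 53.0 FPKM in the other wildtype libraries.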

How the results depend on the processing

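Counts are compared with 8 lower and 0 higher among the 45 genes, 14 and 2 among the other amino acid genes, 1195 and 277 among all tested genes, and 6 regulators called. After median-ratio scaling the numbers were 2 lower and 1 higher of the 45, 7 lower of the other amino acid genes, and 720 lower and 485 higher of all tested genes. With quantile normalization they were 1 and 3, 4 lower, and 652 and 470. With the length trend removed they were 4 lower, 8 lower, and 585 and 516. With no filter on low values 9 of the other amino acid genes were lower and 4 higher. A mean of at least 5 FPKM gave 1 higher gene of the 45 and 1 of the others, and library weights gave 1 higher of the 45. Without knockouts 3 and 11, 6 of the other amino acid genes were lower and 1 higher, 656 of all tested genes were lower, 2 regulators were called, and the median of the 45 genes was -0.25 in place of -0.14. Leaving out 1 library at a time gave 3 to 9 lower and 0 to 1 higher of the 45, 4 to 14 lower and 1 to 2 higher of the others, 599 to 1294 lower and 102 to 360 higher of all tested genes, and 2 to 5 regulators. The causes of these differences were not tested.

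The title numbers 3 and 10 occur in both groups. Deviations of same-numbered libraries from their group means had correlations of -0.0079 and 0.0224 across genes, beside -0.11 to 0.15 for libraries with different numbers. What a true pair would give is not known, so these values cannot decide whether libraries were paired. The main fit treated them as unpaired. The replicate block, with the title number as a further term, leaves 1 residual degree of freedom. With it 0 of the 45, 0 of the other amino acid genes in either direction and 0 regulators were called. Among all tested genes 1 was lower and 1 higher. This block gave the largest adjusted p over all alternatives for Otc, Agxt, Prodh2, Cth, Cdo1, Haao and Hgd.

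Signs changed for the median of the 45 genes with quantile normalization (0.0118), and, among the genes described in every library, for 6 that had not passed: Cps1 (0.0456 with median-ratio scaling, 0.19 with quantile normalization), Nags (0.0305, 0.0668, and 0.0128 with the length trend removed), Arg1 (0.0402 with the length trend removed), Ass1 (-0.25 without knockouts 3 and 11, -0.13 to 0.27 without 1 library at a time, lowest without knockout 11), Gpt2 (-0.0372 without knockouts 3 and 11) and Csad (-0.14 with the replicate block). Over all 45 genes, the sign changed for 9 with median-ratio scaling, 14 with quantile normalization, 7 with the length trend removed, 8 with the replicate block, 4 without knockouts 3 and 11 (Ass1, Gpt2, Bhmt and Ddc) and 0 to 6 without 1 library, and in each case 0 of the 8 lower genes were among them. Of the other values of single named genes under the alternatives, 396 kept their direction and side of the threshold, 69 no longer passed and 8 newly passed. The number of libraries, 4 per group, and a depth known by estimate only limit these comparisons.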
